A study of Rattus norvegicus with 13 samples.

Results

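The genes described are 6 genes of antigen presentation by major histocompatibility complex (MHC) class II in the rat, RT1-Ba, RT1-Bb, RT1-Da, RT1-Db1, RT1-DMa and Cd74. They were read on every probe set whose only gene symbol is one of these, 9 of the 15923 probe sets on the array. RT1-Ba, RT1-Bb and RT1-Db1 have 2 probe sets each and the other genes 1 each. The genes were chosen because several of them had been seen to be lower in microdissected samples titled LCM 800 than in sieved glomeruli, so that their values in that comparison are a description and carry no test here.

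Class II molecules are surface proteins that show peptides from endocytosed proteins to CD4+ T cells. Each is a pair of an α and a β chain, encoded in the rat by RT1-Ba and RT1-Bb for RT1.B, the counterpart of human HLA-DQ, and by RT1-Da and RT1-Db1 for RT1.D, the counterpart of HLA-DR. Cd74 encodes the invariant chain, which fills the groove of new class II molecules and guides them to endosomes, where proteases cut it and the DM heterodimer, whose α chain RT1-DMa encodes, exchanges its last fragment for a peptide. In the kidney class II is known mainly from dendritic cells and macrophages, and endothelial and tubular cells can also make it.

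All samples were kidney glomeruli, the capillary tufts that filter blood, from untreated Lewis-Hsd rats aged 18 weeks on regular diet. In the group called sieved here (titled iron, n = 4), a kidney was perfused with iron oxide, glomeruli were taken by magnet and sieve to a stated purity over 99%, and the RNA was not amplified. In the groups LCM800 (n = 5) and LCM20 (n = 4), glomeruli were cut from sections 10 µm thick of the opposite kidney by laser capture microdissection (LCM), and the RNA went through 2 rounds of amplification. Both protocols state about 800 glomerular cross-sections, and no label explains the 20 in the titles. The protocol of the sieved samples also mentions anti-Thy1.1 rats, although each sample is labelled untreated, and a description field speaks of embryos, which no other field does. Isolation, perfusion and amplification differ together between sieved and LCM samples and cannot be told apart. Replicates are called biological in the titles, but the animal behind each is not named.

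The promoters are shown because transcription of class II genes is known to depend on a shared module, an X box bound by RFX and a Y box bound by NF-Y, on which the coactivator CIITA assembles. In the RefSeq promoters of the GRCr8 build, which come from a BN rat and not from the Lewis strain and run from 250 bases before to 50 after 1 start site per gene, all 6 genes were matched. Capitals mark the Y-box letters TGATTGG and the X-box core letters GCAAC, searched on both strands. The stretches are chr20:4576972-4577038 (plus strand) for RT1-Ba, chr20:4604155-4604221 (minus strand) for RT1-Bb, chr20:4515324-4515390 (plus strand) for RT1-Da, chr20:4560218-4560284 (minus strand) for RT1-Db1, chr20:4712375-4712441 (minus strand) for RT1-DMa and chr18:56527096-56527180 (plus strand) for Cd74.
RT1-Ba: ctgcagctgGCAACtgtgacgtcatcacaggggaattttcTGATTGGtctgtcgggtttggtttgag
RT1-Bb: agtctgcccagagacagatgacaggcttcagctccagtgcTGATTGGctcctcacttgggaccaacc
RT1-Da: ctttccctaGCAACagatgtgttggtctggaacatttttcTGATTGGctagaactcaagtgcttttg
RT1-Db1: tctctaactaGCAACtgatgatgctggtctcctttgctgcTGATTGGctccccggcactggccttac
RT1-DMa: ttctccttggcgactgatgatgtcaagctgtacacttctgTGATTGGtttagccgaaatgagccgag
Cd74: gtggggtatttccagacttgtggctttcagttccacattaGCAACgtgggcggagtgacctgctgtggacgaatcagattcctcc

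For RT1-Ba, RT1-Bb and RT1-DMa that start site is the annotated outer end of the gene, whereas for RT1-Da, RT1-Db1 and Cd74 it lies 22, 20 and 135 bases inside it. The 5 RT1 promoters hold TGATTGG on the gene's strand, beginning between 45 and 82 bases before the table's start site and between 29 and 66 bases before the gene's outer end. Of all 33469 promoters of this length 7.06% hold it on either strand. In RT1-Ba, RT1-Da and RT1-Db1 it follows GCAAC after 26, 26 and 25 bases. Of all promoters 0.275% hold GCAAC followed by TGATTGG within 40 bases, and 35.1% hold GCAAC with or without TGATTGG, each counted on either strand. The 2 motifs share no base in these promoters. The window for Cd74 holds GCAAC but not TGATTGG, and this GCAAC begins 70 bases before the table's start site but 65 bases inside the annotated gene. The 5 RT1 genes lie within 196.9 kb of chromosome 20 (4515393 to 4712335), and Cd74 lies on chromosome 18 (56527071 to 56536406). A match of letters is a description and not a site of binding.

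Values below are the deposited MAS5 signals in intensity units, and differences are of mean log2(signal + 65.3), ± SE of a limma fit over 11106 probe sets that includes all 9 of these. Some arrays stood apart from the others of their group. Sieved replicate 3 correlated with the other sieved arrays at r = 0.873 to 0.897, whereas these correlated with each other at 0.964 to 0.984 (Pearson's r across probe sets, which are not independent replicates). LCM800 replicates 4 and 5 correlated with LCM20 arrays at 0.855 to 0.907 and with LCM800 replicates 1 to 3 at 0.718 to 0.812. In bulk RNA, fewer cells of a type and less RNA per cell cannot be told apart, here and in all results that follow.

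The chains of RT1.B were lower in both LCM groups on their brighter probe sets. For the α chain gene RT1-Ba (1370822_at) the sieved signals were 2247, 2753, 1037 and 1995, the LCM800 signals 118, 80.5, 166, 192 and 115, and the LCM20 signals 392, 131, 64.1 and 373. Every sieved array lay above every LCM array. The mean sieved signal was 14.96-fold that of LCM800, a difference of −3.33 ± 0.36 on the log2 scale. RT1-Ba fell by 2.88 ± 0.38 in LCM20 (limma, adjusted p = 2.83e-05), a comparison that uses the same sieved arrays.

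The β chain gene RT1-Bb (1371033_at) had signals of 5939, 6521, 2793 and 5208 in sieved arrays, of 694, 741, 785, 791 and 695 in LCM800 and of 714, 376, 727 and 1182 in LCM20. The sieved arrays again lay above all others, and the 5 LCM800 arrays lay within 694 to 791. The difference was −2.62 ± 0.29 in LCM800. In LCM20 the gene fell by 2.69 ± 0.30 (limma, adjusted p = 7.78e-06), and its mean signal was 5115 in sieved arrays, 6.82-fold the LCM20 mean of 750.

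The chains of RT1.D were lower too, the β chain gene by more than the α chain gene on the probe sets shown first. RT1-Da (1370883_at), the α chain, had signals of 6237, 6949, 4194 and 5998 in sieved arrays, of 1763, 1372, 1813, 2985 and 2975 in LCM800 and of 1612, 846, 1182 and 2429 in LCM20. No LCM array reached the lowest sieved array. The difference was −1.44 ± 0.31 in LCM800, −1.77 without LCM800 replicates 4 and 5 and −0.93 without replicates 1, 2 and 3. In LCM20 RT1-Da fell by 1.98 ± 0.32 (limma, adjusted p = 0.000179).

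RT1-Db1 (1370383_s_at), the β chain, had sieved signals of 3103, 3345, 1250 and 2881. Its LCM800 signals were 283, 226, 358, 148 and 167, and its LCM20 signals 233, 159, 234 and 572. The groups did not overlap. The difference was −3.12 ± 0.33 in LCM800, and RT1-Db1 fell by 2.92 ± 0.35 in LCM20 (limma, adjusted p = 1.3e-05). Whether the β chain differed more than the α chain was not tested.

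Cd74 (1367679_at), the invariant chain gene, had signals of 8196, 8878, 4607 and 8281 in sieved arrays, 3603, 3011, 2584, 1523 and 659 in LCM800, and 904, 746, 1219 and 3522 in LCM20. The highest LCM signal, 3603, lay below the lowest sieved signal, 4607. The LCM arrays spread widely, with an SD of the log2 values of 0.945 in LCM800 and 0.96 in LCM20 against 0.44 in sieved. The Cd74 difference was −1.85 ± 0.47 in LCM800, −1.24 without replicates 4 and 5 and −2.77 without replicates 1, 2 and 3. Cd74 fell by 2.41 ± 0.50 in LCM20 (limma, adjusted p = 0.00109).

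RT1-DMa (1370904_at), the α chain of the peptide exchanger DM, changed least among the brightest probe sets of the 6 genes. Its signals were 864, 1011, 457 and 801 in sieved arrays, 696, 507, 305, 260 and 299 in LCM800 and 296, 174, 413 and 310 in LCM20. LCM800 replicates 1 and 2 lay within the sieved range, while all LCM20 arrays lay below it. The RT1-DMa difference was −0.86 ± 0.29 in LCM800 and −0.59 without replicates 4 and 5. RT1-DMa fell by 1.22 ± 0.30 in LCM20 (limma, adjusted p = 0.00443).

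**Figure D1:**
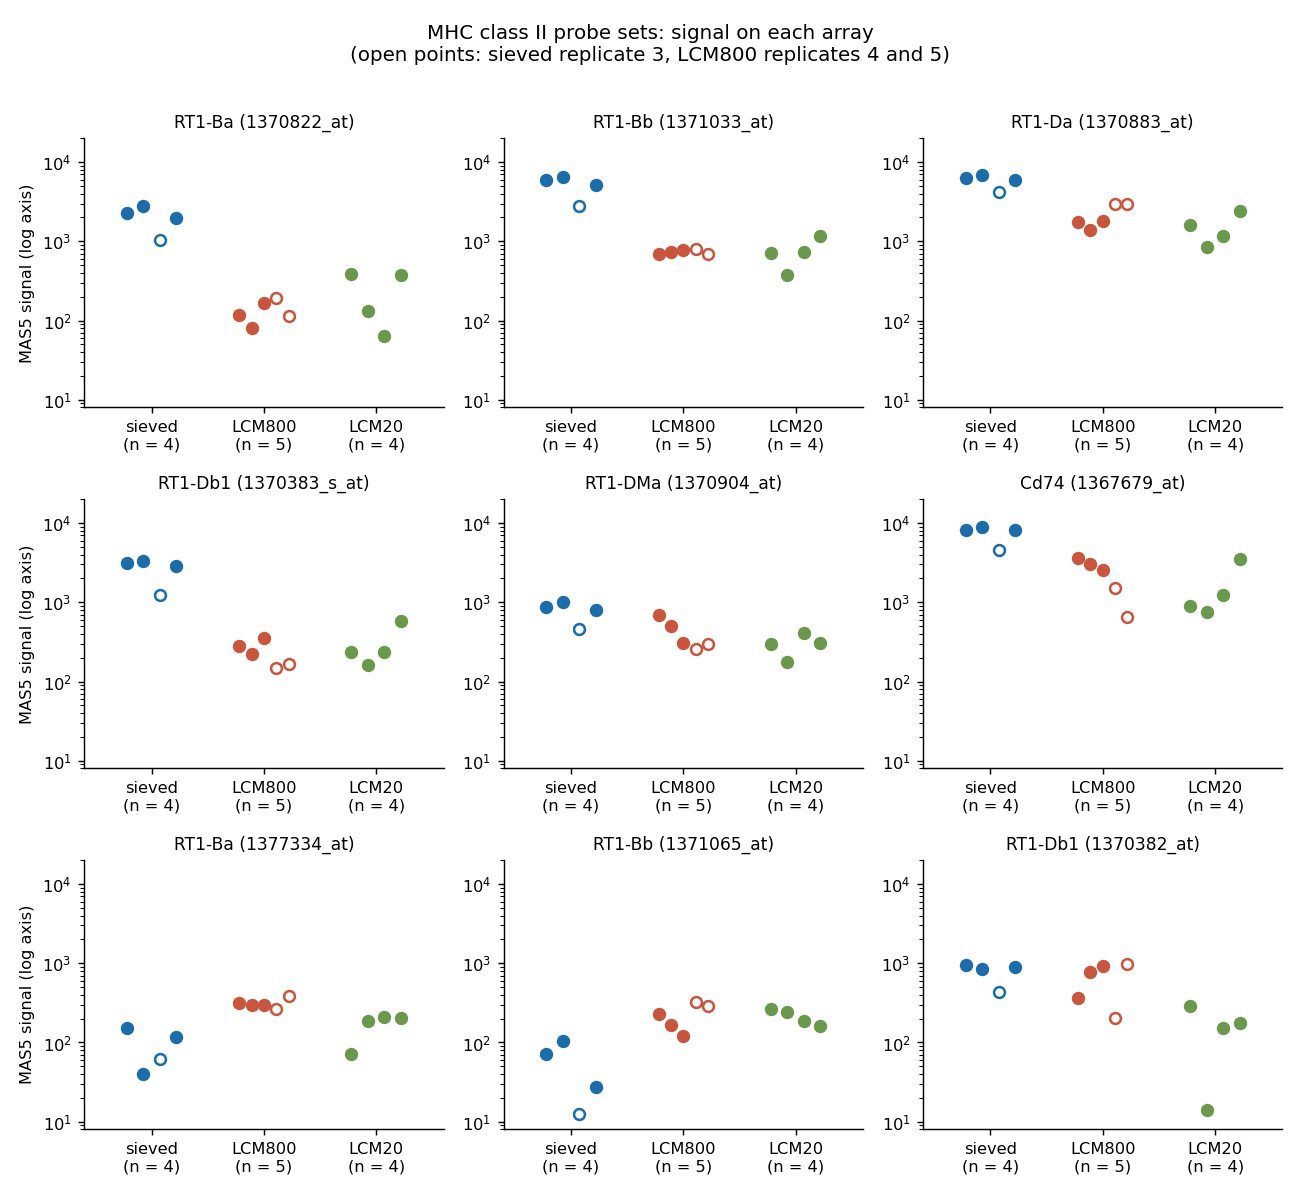
MAS5 signal (log axis) of the 9 class II probe sets on each of the 13 arrays, with sieved in blue, LCM800 in red and LCM20 in green; open points are sieved replicate 3 and LCM800 replicates 4 and 5. In the upper 6 panels the sieved points lie above the LCM points except for RT1-DMa, and in the RT1-Ba and RT1-Bb panels of the lower row they lie below those of LCM800.

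The second probe sets of RT1-Ba and RT1-Bb did not follow the brighter ones. The other RT1-Ba probe set (1377334_at) had signals of 152, 40.2, 62.7 and 116 in sieved arrays, 319, 295, 295, 262 and 391 in LCM800 and 71.3, 185, 210 and 202 in LCM20. It was higher in every LCM800 array than in any sieved array, with a difference of 1.30 ± 0.26. Its difference of 0.56 ± 0.27 in LCM20 did not pass (limma, adjusted p = 0.102, and 0.0203 to 0.372 over the alternatives), and it passed at 0.80 without LCM20 replicate 1 (adjusted p = 0.0203). The other RT1-Bb probe set (1371065_at) had signals of 71.6, 106, 12.7 and 27.3 in sieved arrays, 232, 166, 120, 323 and 287 in LCM800 and 268, 244, 185 and 160 in LCM20. It rose by 1.27 ± 0.29 in LCM20 (limma, adjusted p = 0.00233), and the difference in LCM800 was 1.30 ± 0.28. Its sieved signals lie near the pseudocount of 65.3, and the rise in LCM20 was 2.38 without a pseudocount and 0.59 with 4 times as much. The sieved mean log2 of these dim RT1-Ba and RT1-Bb probe sets, 7.25 and 6.83, lay under the limit of 7.62 below which dim probe sets were removed. Both were thus tested only through their LCM values. Without that filter the RT1-Bb probe set had an adjusted p of 0.00325 in LCM20 (limma).

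The other RT1-Db1 probe set (1370382_at) was lower than sieved in LCM20, as 1370383_s_at was, but not in LCM800. Its signals were 959, 836, 430 and 890 in sieved arrays, 361, 775, 916, 202 and 968 in LCM800 and 291, 14.2, 154 and 175 in LCM20. The LCM800 arrays overlapped the sieved range (difference −0.37 ± 0.44), whereas every LCM20 array lay below it, and the LCM800 and LCM20 ranges overlapped. This RT1-Db1 probe set fell by 2.05 ± 0.46 in LCM20 against sieved (limma, adjusted p = 0.00228), and by 1.32 with 4 times the pseudocount. Both RT1-Db1 probe sets share 1 target accession in the platform table. Where on the transcripts the probe sets lie was not analysed here.

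Between the LCM groups no class II probe set passed. The test (limma) called 0 of 9 and 17 of 11106 probe sets in all (0.153%, with 0.072% higher and 0.081% lower in LCM20), and 2 of the 9 had an unadjusted p under 0.05. The share of all probe sets called rested on single arrays of both LCM groups. It was 4.52% without LCM800 replicate 4, 1.76% without LCM800 replicate 5, 23.2% without both and 0% without LCM800 replicate 1, 2 or 3. Without LCM20 replicate 2 it was 0%, and without another LCM20 replicate 0.009% to 0.108%. It was 7.73% with array weights, and 0% with only the 2 groups fitted or with the replicate number as a block. The LCM800 arrays are the ones on which the genes had been chosen. The largest difference was that of RT1-Db1 (1370382_at), −1.67 ± 0.44 in LCM20 against LCM800 (95% interval −2.61 to −0.74; adjusted p = 0.0998, and 0.00739 to 0.429 over the alternatives). It passed without LCM800 replicate 4, at −1.98 (adjusted p = 0.0249), without LCM800 replicates 4 and 5, at −1.84 (adjusted p = 0.00739), and with array weights, at −1.86 (adjusted p = 0.02). These are settings in which 4.52%, 23.2% and 7.73% of all probe sets were called, and nothing particular to RT1-Db1 is read from them. The other one was the dim RT1-Ba probe set 1377334_at at −0.75 ± 0.26 (adjusted p = 0.172), which was lower in every LCM20 array than in any LCM800 array, as were 2.24% of all tested probe sets, while 0 of the 9 and 1.6% of all were higher in every LCM20 array.

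For the brightest probe set of each gene the intervals between LCM20 and LCM800 included 0. They ran from −1.55 to 0.44 for Cd74, from −1.19 to 0.11 for RT1-Da, from −0.97 to 0.25 for RT1-DMa, from −0.69 to 0.53 for RT1-Bb, from −0.50 to 0.91 for RT1-Db1 and from −0.31 to 1.21 for RT1-Ba. Differences of either sign lie within these intervals. The order of mean log2 values was sieved, LCM800, LCM20 for Cd74, RT1-Da, RT1-DMa and RT1-Bb, and sieved, LCM20, LCM800 for RT1-Ba and RT1-Db1, in each case with the LCM groups not separated by the test.

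**Figure D2:**
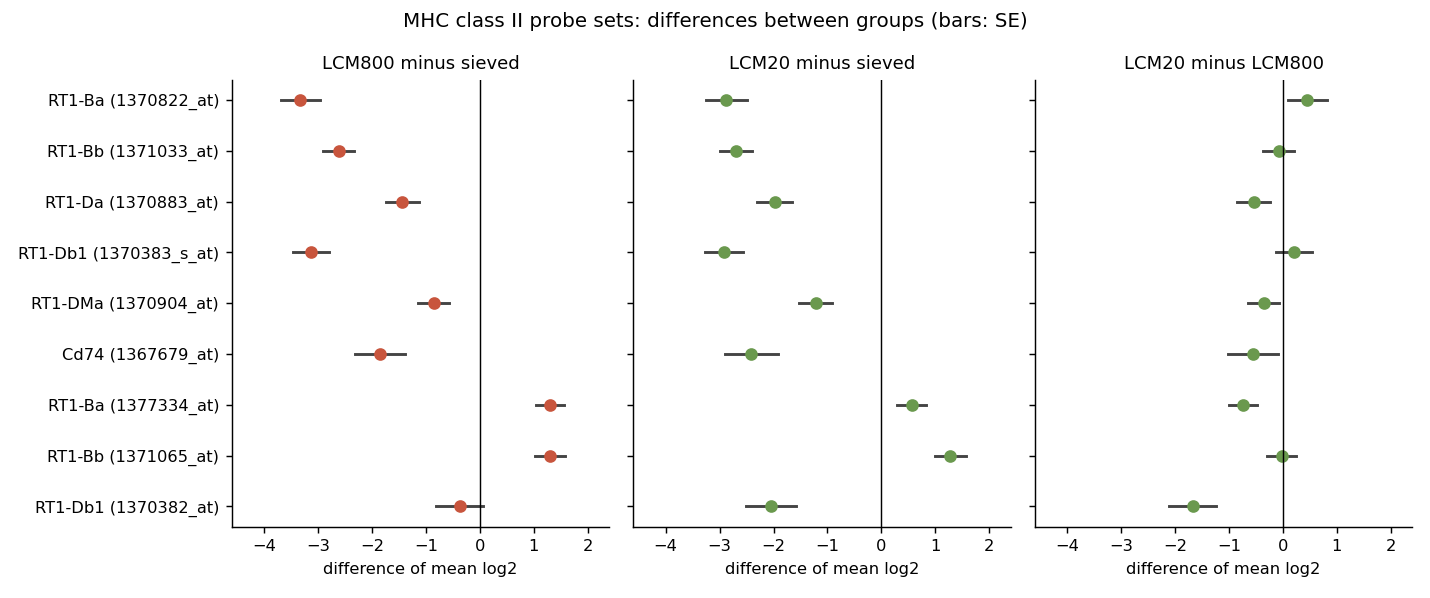
Differences of mean log2(signal + 65.3) for the 9 class II probe sets in the 3 comparisons, with bars of 1 SE from the fit. Against sieved arrays the upper 6 probe sets lie left of 0 in both LCM groups, and RT1-Db1 (1370382_at) lies left of 0 in LCM20 with a bar across 0 in LCM800.

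Counted together, 6 of the 9 probe sets were lower and 2 higher in LCM800 than in sieved arrays at an adjusted p under 0.05, where 20.1% and 31.8% of all tested probe sets were called in these directions (51.9% in either). Ranges did not overlap for 5 lower and 2 higher, as for 16.1% and 26.7% of all tested probe sets. Since the genes were chosen on this comparison nothing is read from these counts. Without LCM800 replicates 4 and 5, 5 were lower and 2 higher. In LCM20 against sieved 7 were lower and 1 higher, where 19.2% and 26.2% of all tested probe sets were called (45.3% in either direction). The 1 higher was the dim RT1-Bb probe set 1371065_at, which passed the filter only through its LCM values. Ranges did not overlap with sieved for 7 lower and 1 higher, as for 18.2% and 25.6% of all tested probe sets. The median difference over the 9 was −1.44 in LCM800 and −2.05 in LCM20, beside 0.22 and 0.17 over all tested probe sets. The counts for LCM20 were the same without sieved replicate 3. Both comparisons share the sieved arrays.

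Within the sieved group most class II probe sets were lowest in a single array. Sieved replicate 3 was the lowest sieved array on 8 of the 9 probe sets, with 40.2% of the mean of the other sieved arrays for RT1-Db1 (1370383_s_at), 44.5% for RT1-Ba (1370822_at), 47.4% for RT1-Bb (1371033_at), 51.3% for RT1-DMa, 54.5% for Cd74 and 65.6% for RT1-Da. The dim RT1-Ba probe set was the exception. The share of all tested probe sets that were lowest in this array was not computed. Without this array the differences of the brightest probe sets against sieved were larger, for example −2.96 for RT1-Bb and −2.63 for Cd74 in LCM20. Among the LCM800 arrays, replicates 4 and 5 were the lowest for Cd74, RT1-DMa and RT1-Db1 (1370383_s_at) and the highest for RT1-Da.

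Over all 13 arrays, after each group's mean was subtracted, the brightest probe sets of the 6 genes were positively correlated in 15 of 15 pairs, with a median Pearson's r of 0.59. The highest r was that of RT1-Bb with RT1-Db1, at 0.85, followed by Cd74 with RT1-Db1, at 0.80, and the lowest that of RT1-Da with RT1-DMa, at 0.03. RT1-Da correlated with Cd74 at 0.09. The second probe sets differed from this: the 2 probe sets of a gene correlated at −0.33 for RT1-Ba, 0.18 for RT1-Bb and 0.51 for RT1-Db1. Cd74 correlated with the dim RT1-Bb probe set at −0.32. The share of positive pairs among all tested probe sets was not computed. The arrays share sieved replicate 3 and the split among LCM800 arrays, and these values are a description. By the same measure the probe sets most like Cd74 were those of Asmtl (0.95), Lrsam1 (0.95), Abtb1 (0.95), Clptm1 (0.94) and Fxyd2 (0.94), the last a subunit of the renal sodium pump. Those most like RT1-Da were Coasy (0.90), which makes coenzyme A, Aifm1 (0.90), the calcium pump gene Atp2a2 (0.90), the amino acid transporter gene Slc7a1 (0.88) and Sostdc1 (0.87).

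The genes that process antigen and load class II were mostly lower in LCM samples as well. Of 17 listed genes 15 were on the array under a single symbol and 13 passed the filter on dim probe sets. In LCM20 against sieved 7 of the 13 fell and 1 rose, beside 19.2% of all tested probe sets lower and 26.2% higher, and in LCM800 8 were lower and 1 higher, beside 20.1% and 31.8%. These shares of all tested probe sets are the background for every list that follows. The list's median difference was −0.87 and −1.63, beside 0.17 and 0.22 over all tested probe sets. Among endosomal proteases, Ctsd (cathepsin D) fell by 2.62 ± 0.32 in LCM20 (limma, adjusted p = 1.56e-05), and Ctsb (cathepsin B) fell by 2.45 ± 0.28 (adjusted p = 8.15e-06). Lgmn, an asparagine-specific protease, fell by 2.16 ± 0.36 (adjusted p = 0.000224) and Ctsh, cathepsin H, fell by 1.94 ± 0.25 (adjusted p = 2.55e-05). Cd9 and Cd82 encode tetraspanins, found beside class II in membranes and in many other cells. Cd9 fell by 3.93 ± 0.35 (limma, adjusted p = 9.07e-07), and Cd82 fell by 2.15 ± 0.34 (adjusted p = 0.000124). Ifi30, the lysosomal thiol reductase, fell by 0.87 ± 0.25 (adjusted p = 0.00948).

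Ctss went the other way. It encodes cathepsin S, the protease that makes the late cuts of the invariant chain in antigen-presenting cells. Ctss signals ran from 475 to 641 in sieved arrays, from 947 to 2163 in LCM800 and from 1033 to 1959 in LCM20, so that every LCM array lay above every sieved array. Ctss rose by 1.15 ± 0.27 in LCM20 (limma, adjusted p = 0.00308), and the difference in LCM800 was 1.46 ± 0.26. RT1-DMb, the β chain partner of RT1-DMa, had overlapping ranges, 863 to 2297 in sieved, 1481 to 2148 in LCM800 and 1201 to 1669 in LCM20. Its difference was −0.27 ± 0.27 in LCM20 (limma, adjusted p = 0.432) and 0.04 ± 0.26 in LCM800. Cst3 (−0.46 in LCM20; adjusted p = 0.296), an inhibitor of cathepsins, Ctsl (−0.61; adjusted p = 0.24), Ctsz (−0.38; adjusted p = 0.361) and the ubiquitin ligase gene Marchf8 (−0.49; adjusted p = 0.111) did not pass in LCM20, although Cst3 and Ctsl were lower in LCM800, at −1.34 ± 0.33 and −1.67 ± 0.40. Marchf1 and Cd37 were too dim to be tested.

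The transcription factors of class II genes were mixed in direction. Of 16 listed genes 9 were tested, of which 2 fell and 1 rose in LCM20 and 2 were lower and 2 higher in LCM800, with median differences of 0.16 and −0.17. Over all tested probe sets 19.2% were lower and 26.2% higher in LCM20 and 20.1% and 31.8% in LCM800, with medians of 0.17 and 0.22. Ciita, the coactivator, had signals of 223 to 326 in sieved arrays, 248 to 475 in LCM800 and 214 to 453 in LCM20. Its ranges overlapped, and its difference was 0.16 ± 0.24 in LCM20 (limma, adjusted p = 0.602) and 0.27 ± 0.23 in LCM800. Rfx5, a subunit of the X-box factor RFX, differed by 0.15 ± 0.33 in LCM20 (adjusted p = 0.74). Nfyc and Nfya encode subunits of the Y-box factor NF-Y; Nfyc fell by 1.22 ± 0.21 in LCM20 (adjusted p = 0.000252), and Nfya differed by 0.23 ± 0.31 (adjusted p = 0.557). Creb1 fell by 1.47 ± 0.31 (adjusted p = 0.00117), to a mean LCM20 signal of 64.8. Irf8, a factor of myeloid and B cells, rose by 0.59 ± 0.22 (adjusted p = 0.0377), from a mean sieved signal of 115. That is under the limit for dim probe sets, so Irf8 was tested only through its LCM values. Creb1 was tested only through its sieved values. Irf1 (0.58; adjusted p = 0.0871), the coactivator genes Kat2b (1.1; adjusted p = 0.102) and Crebbp (−0.56; adjusted p = 0.167) did not pass. Nfyb and Irf2 were under the pseudocount in every array, and Rfxank was too dim to be tested.

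**Figure D3:**
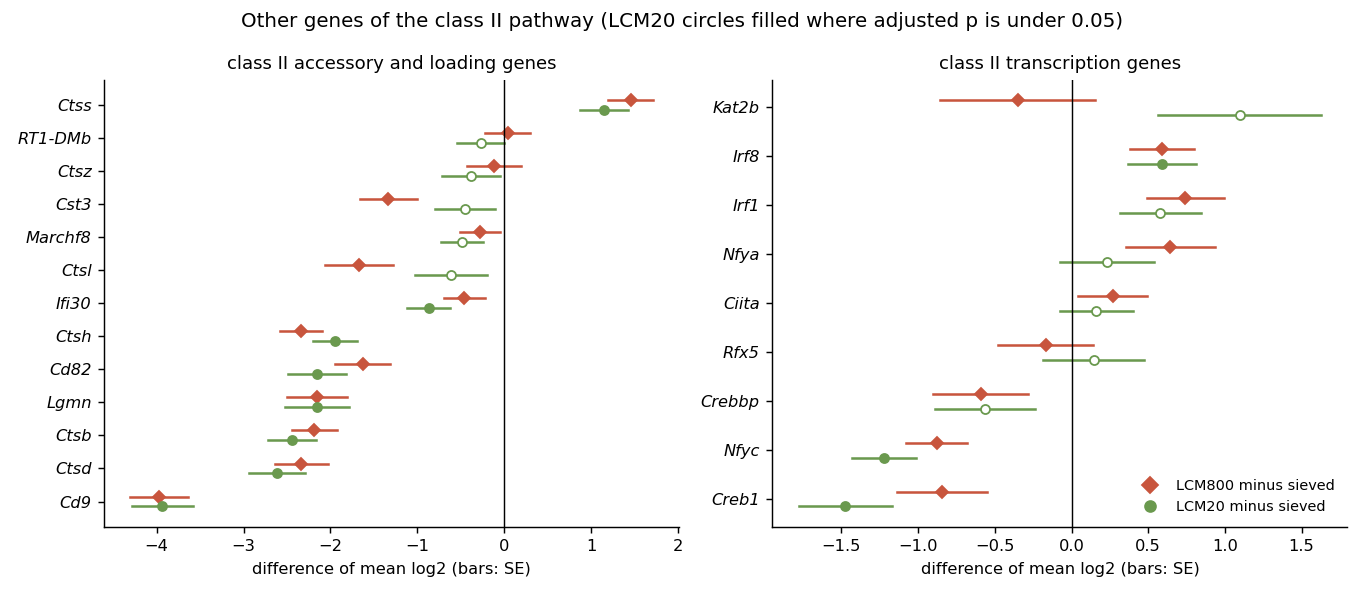
Differences of mean log2(signal + 65.3) against sieved arrays, with bars of 1 SE, for 13 genes of class II processing and loading (left) and 9 genes of class II transcription (right); LCM800 is shown as red diamonds and LCM20 as green circles, filled where the adjusted p was under 0.05. Most loading genes lie left of 0 with Ctss right of it, and Ciita and Rfx5 lie near 0.

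Neighbouring pathways were mixed. Among 18 class I presentation genes 6 rose and 3 fell in LCM20, with a median difference of 0.14, near the 26.2% and 19.2% of all tested probe sets and their median of 0.17. Of these Erap1, an aminopeptidase that trims peptides, rose by 2.24 ± 0.33 (limma, adjusted p = 8.45e-05) and Psme2, of the proteasome activator, by 1.79 ± 0.25 (adjusted p = 4.7e-05), while Pdia3, a disulfide isomerase of the loading complex, fell by 2.43 ± 0.25 (adjusted p = 3.96e-06) and Tapbp, tapasin, fell by 1.46 ± 0.27 (adjusted p = 0.000429). Of 4 costimulation genes tested 3 rose in LCM20, among them Cd83 by 1.56 ± 0.20 (adjusted p = 1.89e-05) and Cd86 by 1.41 ± 0.29 (adjusted p = 0.00124), the latter from a mean sieved signal of 61.0. In sieved arrays Cd86 and another of the 3 lay under the limit for dim probe sets. They were thus tested only through their LCM values, and nothing is read from the count. Of 7 interferon-γ signalling genes, a pathway known to induce Ciita, 0 passed in LCM20 (limma; 2 had an unadjusted p under 0.05; median 0.20), and 3 were higher in LCM800.

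Among markers of leukocytes, which include the cells that carry class II, none passed as lower in the LCM samples. Of 18 mononuclear phagocyte markers tested, 5 rose and 0 fell in LCM20 and 8 were higher and 0 lower in LCM800 (limma), with median differences of 0.07 and 0.39. The count of rises in LCM20 is near the 26.2% of all tested probe sets called higher, and the medians over all probe sets were 0.17 and 0.22. The summed signal of the 22 markers on the array ran from 7477 to 8591 in sieved arrays, from 11180 to 13950 in LCM800 and from 10720 to 15770 in LCM20. Of these Itgam was under the pseudocount in every array, and none was listed at 0. Lyz2, the brightest of them, had mean signals of 2583 in sieved arrays, 4007 in LCM800 and 4794 in LCM20. The sum is thus weighted to Lyz2 and does not describe the other markers. In LCM20 13 of the 18 tested did not pass. Laptm5, a lysosomal protein gene of leukocytes, rose by 1.28 ± 0.21 in LCM20 (limma, adjusted p = 0.000165). Ctss is a member of this list too. Of 7 dendritic cell markers on the array 4 were tested and 3 rose, among them Cd83 and Itgae (1.13 ± 0.20, limma, adjusted p = 0.000333). Clec9a was under the pseudocount in every array. Of 9 T cell markers on the array 6 were tested and 5 rose, led by Cd3g at 1.30 ± 0.22 (adjusted p = 0.000199) and Cd3d at 1.05 ± 0.27 (adjusted p = 0.00579). Mean sieved signals were low, at 126.5 for Itgae, 133 for Cd3g and 63.7 for Cd3d. The filter on dim probe sets used the mean over all arrays, so such markers can be tested through their LCM values. The only B cell marker on the array under a single symbol, Cd79b, was under the pseudocount in every array.

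Tubule markers were mostly lower in the LCM groups too. Of 23 proximal tubule markers 22 fell and 0 rose in LCM20, with a median difference of −2.95, and 22 were lower and 1 higher in LCM800, with −3.14. Their summed signal was 116300 to 214600 in sieved arrays, 34270 to 64660 in LCM800 and 27200 to 81140 in LCM20, and no marker was listed at 0 in any group. Ass1, of arginine synthesis, fell by 4.13 ± 0.33 in LCM20 (limma, adjusted p = 4.51e-07), and Fxyd2 fell by 4.12 ± 0.40 (adjusted p = 1.69e-06). Of 13 distal nephron markers tested, 11 fell and 0 rose in LCM20 and 8 were lower and 1 higher in LCM800, with a summed signal over 14 markers of 21110 to 45990 in sieved arrays, 14460 to 22170 in LCM800 and 5382 to 12920 in LCM20. Sieved replicate 3, the array low in class II, had 57.4% of the mean of the other sieved arrays for the proximal tubule sum, 48.7% for the distal sum and 94.6% for the phagocyte sum. Within LCM20 the proximal tubule sum and the Cd74 signal were lowest on the same array and highest on different arrays. LCM20 replicate 2 had the lowest sum, 27200, with a Cd74 signal of 746. LCM20 replicate 1 had the highest proximal tubule sum of its group, 81140, with a Cd74 signal of 904. LCM20 replicate 4 had a sum of 36120 and the highest Cd74 signal of its group, 3522.

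Glomerular markers went in different directions. The glomerular endothelial sum over 10 markers ran from 6081 to 20340 in sieved arrays, with the highest value in replicate 3, from 18340 to 23980 in LCM800 and from 22540 to 29400 in LCM20. Of the 10 endothelial markers 5 rose and 0 fell in LCM20, led by Egfl7 at 2.07 ± 0.31 (limma, adjusted p = 8.32e-05) and the receptor gene Kdr at 1.97 ± 0.38 (adjusted p = 0.000636). Of 10 podocyte markers 4 rose and 4 fell, led by Rhpn1 at 2.16 ± 0.47 (limma, adjusted p = 0.00164) and Mme at −2.28 ± 0.39 (adjusted p = 0.000239), and of 9 mesangial markers 1 rose and 2 fell. The mesangial sum was lower in every LCM array than in any sieved array, at 6760 to 7929 in sieved, 3329 to 5680 in LCM800 and 2430 to 3593 in LCM20. The 2 mesangial markers that fell are the brightest of the list in sieved arrays, so the sum does not describe the other markers. Mean signals in sieved, LCM800 and LCM20 were 4341, 1441 and 933 for Igfbp5 and 1158, 163.3 and 168.5 for Nt5e. In LCM800 3 mesangial markers were higher and 2 lower. None of these markers was listed at 0. The β-actin control probe sets, used to judge RNA quality, gave a 3′ minus 5′ log2 difference of 0.53 to 0.57 in sieved arrays, 1.72 to 4.01 in LCM800 and 1.33 to 2.29 in LCM20. The GAPDH controls gave 0.36 to 0.66, 0.68 to 2.02 and −0.22 to 3.06, overlapping in LCM20. The Hexokinase controls went the other way, at 0.62 to 0.92 in sieved, −0.23 to 0.60 in LCM800 and 0.10 to 0.76 in LCM20. The part of tubule content or of the 3′ to 5′ signal in the class II differences was not tested.

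**Figure D4:**
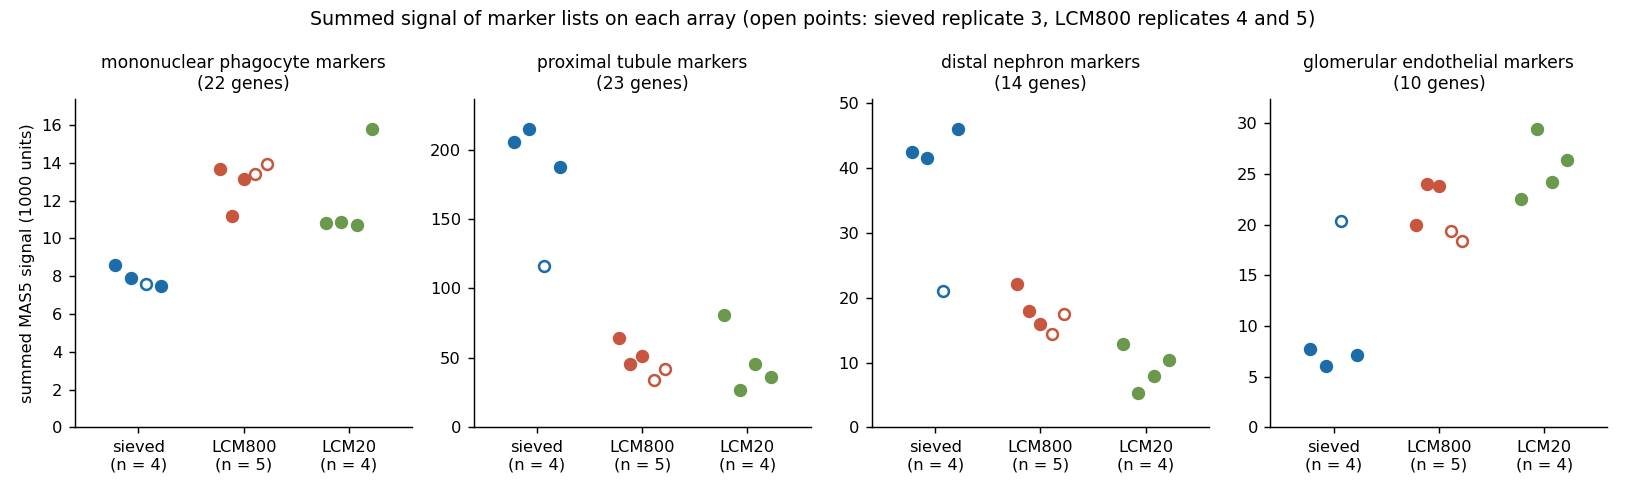
Summed MAS5 signal (linear axis from 0, rescaled by the factor on its label) of 4 marker lists on each array, with open points for sieved replicate 3 and LCM800 replicates 4 and 5. Phagocyte sums are lowest in sieved arrays, tubule sums are highest in sieved replicates 1, 2 and 4, and sieved replicate 3 stands near the LCM arrays for endothelial markers.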

How the data were processed

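RNA of 13 samples was hybridised to one-colour rat 230A arrays. The authors deposited linear MAS5 intensity values, per the submitters' processing notes; the MAS5 version, annotation and scaling target are not given in the sources used here. The mean of each array without 2% of values at each end was 500.1, so no further scaling was applied. Signals were taken as log2(signal + 65.29), the pseudocount being the 20th percentile of all signals. Control probe sets (57) and then the dimmest 30% by mean log2 were removed. Before the filter on dim probe sets, 12783 of the probe sets that are not controls had 1 gene symbol, 312 several and 2771 none, from the platform annotation updated through RefSeq gene identifiers.

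The 3 groups were fitted together in limma 3.58.1 (R 4.3.3; lmFit, eBayes with intensity trend) with no covariate, and p-values, two-sided, were adjusted over 11106 probe sets (Benjamini-Hochberg, 0.05). The fit was run on simulated data with independent normal noise, few changed probe sets, and no outlying arrays or shared rats. That run checks the code and not the p-values printed here. A gene of a list was represented by its brightest single-symbol probe set. All probe sets of the 6 genes, all tested genes of the loading and transcription lists, and the 2 largest rises and falls past the test in LCM20 in other lists were eligible to be named, as were the 5 probe sets most like Cd74 and RT1-Da. Lyz2 was also named, as the brightest phagocyte marker. Genes and lists were chosen with earlier results of these data known. The number of arrays limits the precision, and p-values measure the spread between these samples.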

Additional observations from a re-analysis of the deposited data

Results flagged for a closer look

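In 3 of 27 tests (9 probe sets in 3 groups) an array lay far from the others of its group; by chance about 1 in 20 would. Sieved replicate 3 had a signal of 4607 for Cd74, against 8196 to 8878 in the other sieved arrays, and of 1250 for RT1-Db1 (1370383_s_at), against 2881 to 3345. LCM20 replicate 1 had a signal of 71.3 for the dim RT1-Ba probe set 1377334_at, against 185 to 210 in the other LCM20 arrays.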

How the results depend on the processing

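For LCM20 against sieved, 7 class II probe sets were lower under every alternative that tested all 9, and 6 of 6 after removing the dimmest 60% of probe sets, which takes away 3 of the 9. The number higher was 1, and 0 with the lowest 60% left out; leaving out single replicates gave 1 to 2. For LCM800 against sieved, leaving out single replicates gave 5 to 6 lower and 2 higher, and with the lowest 60% left out 5 were lower and 0 higher. Between LCM20 and LCM800 the number lower was 0, and 1 with array weights and without LCM800 replicates 4 and 5, where 7.73% and 23.2% of all probe sets were called; leaving out single replicates gave 0 to 1. RT1-Ba (1370822_at) left the LCM800 count with the dimmest 60% removed, since it was then not tested. In the fits without single replicates it was RT1-DMa that left it, at −0.73 without sieved replicate 2 (limma, adjusted p = 0.0732), and also without sieved replicates 1 or 4. Kat2b, at −0.35 in LCM800, turned to 1.09 when LCM800 replicates 1, 2 and 3 were omitted (limma, adjusted p = 0.0133; the cause was not tested). The replicate numbers were not used as pairs. Deviations of same-numbered arrays correlated at −0.244 to 0.233, and 2 of 8 arrays matched their own number best for each comparison with sieved and 1 of 8 between the LCM groups. These values cannot show that the samples come from different rats, since the LCM tissue was of the opposite kidney and no animal is named. The fit treated all arrays as independent, and its p-values would not hold as given if rats were shared. With the replicate number as a block LCM20 kept counts of 7 lower and 1 higher, LCM800 had 5 lower and 2 higher, and RT1-DMa in LCM800 was at −0.78 (adjusted p = 0.0561). Dim probe sets near the pseudocount give differences whose size depends on it.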
